A study of Mus musculus with 15 samples.

Results

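Purine signalling was followed through 8 genes of extracellular ATP and adenosine handling in regulatory T cells (Tregs) of mouse skin and lymph nodes: Nt5e, Entpd1, P2rx7, P2rx4, P2ry14, Adora2a, Adk and Ada. They were taken by name as 8 of the 24015 genes in the deposited count table, and all 8 were among the 13578 genes tested. The study compared Tregs of skin with those of skin-draining lymph nodes (LN), Tregs with and without floxed Rora, the gene of the nuclear receptor RORα, and Tregs of untreated skin with those of skin inflamed by MC903. MC903 (calcipotriol) is a vitamin D analogue, applied 4 times to the ears. The 15 libraries form 5 groups of 3, each sorted as CD45+CD3+CD4+YFP+ cells from adult C57BL/6 animals. Every animal carried Foxp3 cre-eyfp, which puts Cre and a yellow fluorescent protein under the Foxp3 locus. Where Rora is also floxed, it is cut in Foxp3-expressing cells. The WT groups, with no other allele named, were LN, untreated skin and MC903 skin. The cKO groups, which were Foxp3 cre-eyfp Rora fl/fl, were untreated skin and MC903 skin, and no cKO LN library was analysed here. The untreated groups were taken from back skin and ears, the MC903 groups from ears alone, so body site and treatment cannot be told apart. Skin was digested with enzymes for 90 minutes and a digestion is not named for LN, so tissue and digestion cannot be told apart either. The titles call the libraries biological replicates without saying more of the animals, and the p-values measure the spread between these libraries.

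ATP leaves stressed or dying cells and is read as a danger signal by P2X ion channels and P2Y receptors. On the surface of Tregs it is cut stepwise to AMP by CD39, the product of Entpd1, and then to adenosine by CD73, the product of Nt5e. Adenosine acts on cAMP-coupled receptors, of which that of Adora2a is the main one in T cells, and it is removed by adenosine kinase (Adk) and adenosine deaminase (Ada).

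Promoters are shown for Nt5e and P2ry14, the members that differed by genotype, and for P2rx7, the member with the largest difference between tissues. The RefSeq table of build GRCm38.p6 held 13 start sites for 7 of the 8 members, and Adora2a was not among them. It has 1 start site for Nt5e, 4 for P2ry14 and 2 for P2rx7. For P2ry14 the window shown is the 1 of 4 that holds a motif, and for P2rx7 it is the start site listed first. Each sequence is the 250 bases before a start site, read 5′ to 3′ on the gene's strand, with capitals for AGGTCA, the core hexamer that ROR receptors bind, or TGACGTCA, the cAMP response element, on either strand.
Nt5e, chr9:88327359-88327608, plus strand: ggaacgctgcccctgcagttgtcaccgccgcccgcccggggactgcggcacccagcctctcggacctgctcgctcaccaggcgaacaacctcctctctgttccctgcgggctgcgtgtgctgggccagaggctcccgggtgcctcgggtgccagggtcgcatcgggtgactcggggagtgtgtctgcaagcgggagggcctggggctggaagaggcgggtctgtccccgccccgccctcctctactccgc
P2ry14, start site 2, chr3:59131329-59131578, minus strand: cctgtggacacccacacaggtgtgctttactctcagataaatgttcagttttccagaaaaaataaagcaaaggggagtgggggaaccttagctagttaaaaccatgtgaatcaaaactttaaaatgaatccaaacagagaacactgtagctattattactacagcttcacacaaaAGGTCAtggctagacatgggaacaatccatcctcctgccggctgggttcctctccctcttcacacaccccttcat
P2rx7, start site 1, chr5:122643677-122643926, plus strand: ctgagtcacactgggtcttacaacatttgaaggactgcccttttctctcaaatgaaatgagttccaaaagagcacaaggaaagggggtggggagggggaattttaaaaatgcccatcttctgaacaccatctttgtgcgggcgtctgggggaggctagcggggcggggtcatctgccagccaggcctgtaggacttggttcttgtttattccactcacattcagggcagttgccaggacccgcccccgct
The Nt5e window and the P2rx7 window held neither motif, and the P2ry14 window held 1 AGGTCA. The window of the other P2rx7 start site, not shown, also held 1. This hexamer stood in 3 of the 13 windows, at start sites of P2rx7, P2rx4 and P2ry14, and TGACGTCA in 0 of them. Of all 32851 promoter windows of this length, 14.02% held AGGTCA and 1.546% held TGACGTCA. A match describes the letters only.

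Levels are given as CPM, the counts per M (the mega prefix) of the scaled library size. The libraries held 19.8 to 27.7 M counts each. Foxp3 stood at 16.2 to 41.8 CPM in LN and 110 to 202 CPM in skin, and Cd3e and Cd4 were present throughout (772 to 1660 and 230 to 452 CPM). In untreated skin Rora ran from 1327 to 1510 CPM for WT against 822 to 1199 for cKO. In MC903 skin it ran from 739 to 813 CPM for WT against 473 to 633 for cKO. Its count covers the whole gene, and the deleted part is not named in the labels. B cell markers summed to 230 to 859 CPM in LN, highest in replicate 3, and to at most 25.5 CPM in skin, with Pax5 and Bank1 at 0 in untreated skin. Keratinocyte markers summed to 31.5 to 33.7 CPM in LN and 163 to 817 CPM in skin. Mast cell, basophil and granulocyte markers summed to 3.55 to 5.81 CPM in LN and 31.2 to 37.5 CPM in WT untreated skin. Of that list, Ms4a2, S100a8 and S100a9 were at 0 in WT untreated skin and not in LN, against the direction of the sum. Mcpt4, Cma1, Tpsb2 and Elane were at 0 in LN and not in WT untreated skin. Markers of other lymphocytes summed to 44.1 to 63.5 CPM in LN and 15.7 to 21.6 CPM in WT untreated skin. Macrophage and dendritic cell markers overlapped between LN (685 to 2220 CPM) and WT untreated skin (666 to 1270 CPM) and were lower in WT MC903 skin (478 to 609 CPM). Most of each of these sums was Cd74, which alone stood at 570 to 1730, 613 to 924 and 430 to 485 CPM in these groups. These sums thus say little of the other genes listed. The part of these marker groups in the tissue differences was not tested.

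**Figure D1:**
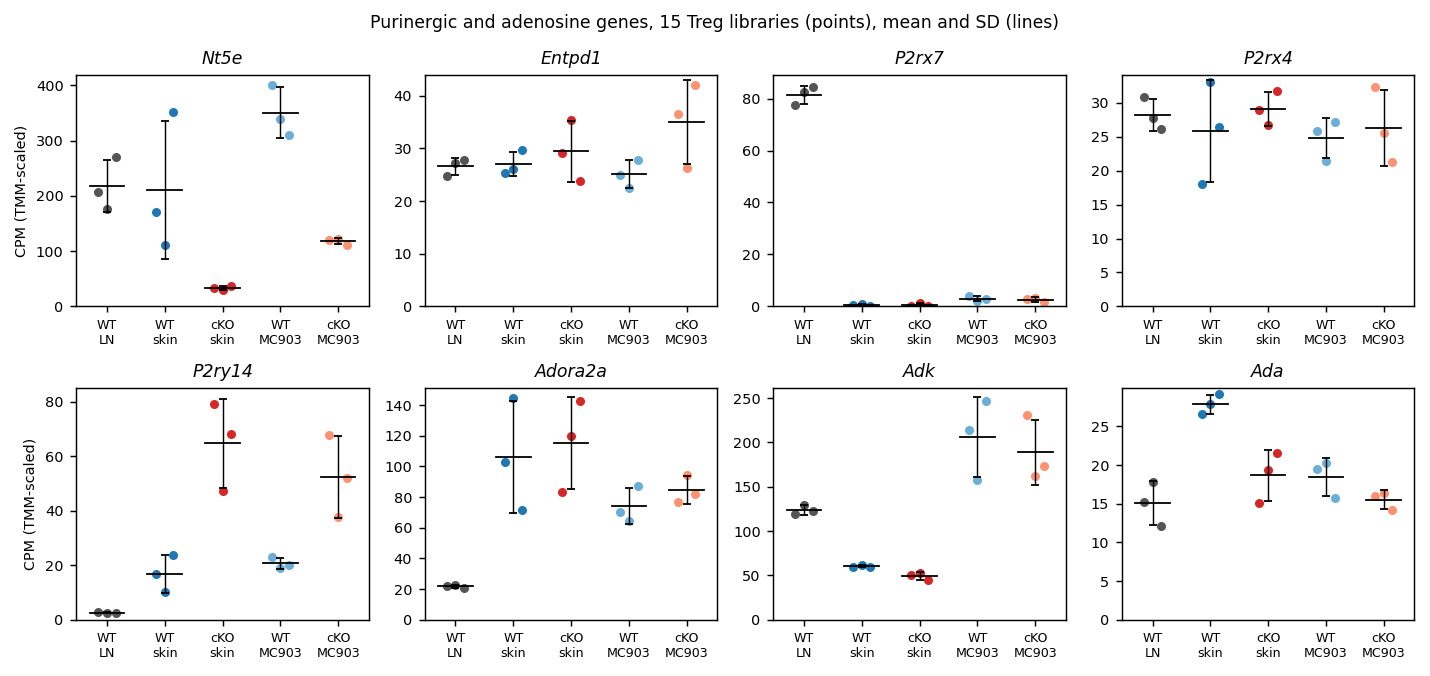
Level of each of the 8 genes in each of the 15 libraries in CPM, with 1 point per library, a long line at the group mean and error bars of 1 SD. Nt5e is low in cKO untreated skin (29.1 to 37.7 CPM), P2ry14 is high in both cKO groups (37.6 to 79.3 CPM), P2rx7 is high in LN alone (77.6 to 84.3 CPM), and Adk is high in both MC903 groups (158 to 247 CPM).

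Between WT untreated skin and LN, P2rx7 and Adk fell, while P2ry14, Adora2a and Ada rose, so the ATP-gated channel was at its highest in LN and the adenosine receptor in skin. Nt5e, Entpd1 and P2rx4 did not pass the test. The 3 genes called higher and 2 called lower at an adjusted p under 0.05 stand beside 57.6% of all genes called (28.8% in each direction), so their count is near the background. The median log2 difference of the members was -0.01, and that of all genes tested was 0.01. Throughout, adjusted p-values come from the quasi-likelihood test of edgeR, adjusted by Benjamini and Hochberg's method across the whole table, and ± after a log2 difference is its standard error.

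Nt5e, whose enzyme makes adenosine from AMP, measured 207, 177 and 270 CPM in LN. In WT untreated skin it measured 172, 110 and 351 CPM. The groups overlapped, and replicate 3 of WT untreated skin stood above every LN library. The log2 difference between them was -0.05 ± 0.30 (adjusted p = 0.906). Without replicate 3 of WT untreated skin it was -0.63 (adjusted p = 0.0178), so 1 library decides this call. Entpd1, the enzyme one step upstream, measured 24.8, 27.1 and 27.8 CPM in LN and 25.3, 26.1 and 29.7 CPM in WT untreated skin. Those ranges overlapped almost fully, with a log2 difference of 0.02 ± 0.19 (adjusted p = 0.92).

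P2rx7, the ATP-gated channel that can kill T cells after strong stimulation, measured 77.6, 82.6 and 84.3 CPM in LN. In WT untreated skin it measured 0.567, 0.973 and 0.162 CPM, from counts of 12, 22 and 3. LN stood above every skin library, and the log2 difference was -7.12 ± 0.79 (adjusted p = 5.02e-06), 139-fold lower in skin. Without replicate 2 of WT untreated skin the log2 difference was -7.75. P2rx4, a related channel whose gene lies close to P2rx7 on chromosome 5, measured 30.8, 27.8 and 26.2 CPM in LN and 18.0, 33.1 and 26.4 CPM in WT untreated skin. Its groups overlapped (log2 difference -0.13 ± 0.21, adjusted p = 0.619). P2ry14, the receptor for UDP-glucose and other nucleotide sugars, measured 2.91, 2.63 and 2.32 CPM in LN and 16.6, 10.04 and 23.8 CPM in WT untreated skin. All skin libraries stood above all LN libraries, and the log2 difference was 2.68 ± 0.30 (adjusted p = 2.20e-06), 6.40-fold higher in skin.

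Adora2a, the cAMP-raising adenosine receptor, measured 21.9, 22.8 and 20.4 CPM in LN. In WT untreated skin it measured 103, 144 and 71.5 CPM. The groups lay apart, and the log2 difference was 2.29 ± 0.24 (adjusted p = 7.48e-07), 4.90-fold higher in skin. Adk, which returns adenosine to AMP inside the cell, measured 119, 130 and 122 CPM in LN and 59.4, 62.0 and 60.0 CPM in WT untreated skin. Skin was lower in each library, by 2.04-fold (log2 difference -1.03 ± 0.16, adjusted p = 5.05e-05). Ada, which turns adenosine to inosine, went the other way, from 15.3, 17.8 and 12.1 CPM in LN to 26.7, 27.9 and 29.1 CPM in WT untreated skin. Its groups lay apart too (log2 difference 0.89 ± 0.19, adjusted p = 0.000996), so the genes of the enzymes that remove adenosine differed between tissues in opposite directions.

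The authors' deposited table compares LN with skin, and its log2 fold changes are LN minus skin. It gives Adora2a at -2.28 ± 0.23, P2ry14 at -2.60 ± 0.29, Ada at -0.92 ± 0.20 and Adk at 0.97 ± 0.17. For P2rx7 the authors' deposited table gives 5.43 ± 0.65 with an empty adjusted p, where the edgeR fit gave -7.12 for skin minus LN.

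MC903 skin of WT animals, which came from ears alone, was compared with the same LN libraries. P2rx7 again fell, at 4.15, 2.08 and 2.72 CPM, by 4.77 ± 0.68 on the log2 scale (adjusted p = 6.59e-05). P2ry14 rose to 23.0, 18.9 and 20.2 CPM (log2 difference 2.98 ± 0.31, adjusted p = 1.05e-06), and Adora2a to 70.5, 64.4 and 87.3 CPM (1.77 ± 0.23, adjusted p = 1.33e-05). Adk was higher than in LN here, at 214, 158 and 247 CPM (log2 difference 0.74 ± 0.16, adjusted p = 0.00109). The 4 called members, 3 higher and 1 lower, stand beside 51.1% of all genes called, 26.5% higher and 24.5% lower. Nt5e, at 401, 340 and 311 CPM, stood above every LN library and did not pass (log2 difference 0.69 ± 0.30, adjusted p = 0.0704), and it passed in 6 of 15 alternatives. These were DESeq2, limma-voom, only the compared groups, the replicate block, and the runs without LN replicate 3 (adjusted p = 0.0479) or the macrophage-marker-rich libraries. Over the 15 its adjusted p ran from 0.0022 to 0.216. Ada differed from LN by 0.29 ± 0.19 on the log2 scale (adjusted p = 0.212).

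**Figure D2:**
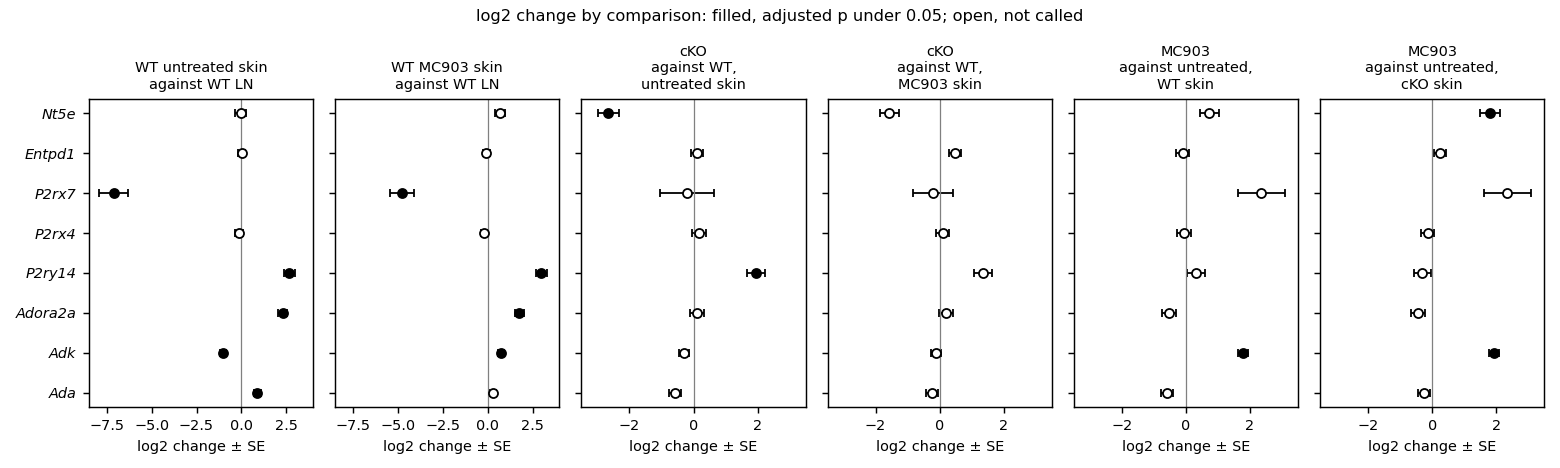
Log2 difference of each of the 8 genes in each comparison, with bars for ± 1 standard error and filled points for an adjusted p under 0.05. P2rx7 has the largest tissue difference (-7.12 in untreated skin), Nt5e and P2ry14 are the genes called by genotype in untreated skin, and Adk is called in both MC903 comparisons.

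Floxed Rora went with lower Nt5e and higher P2ry14 in untreated skin. Nt5e measured 33.6, 29.1 and 37.7 CPM in cKO untreated skin, all below the lowest WT library at 110 CPM. Its log2 difference, cKO minus WT, was -2.66 ± 0.32 (adjusted p = 0.000816), 6.30-fold lower. In bulk samples, fewer cells of a type and less RNA per cell cannot be told apart. P2ry14 measured 79.3, 47.1 and 68.0 CPM in cKO untreated skin, all above the highest WT library at 23.8 CPM (log2 difference 1.95 ± 0.29, adjusted p = 0.00266), 3.86-fold higher. These 2 of 8 members stand beside 0.803% of all genes called, 0.398% higher and 0.405% lower. Both calls held in each alternative run.

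The other 6 members did not pass. Ada measured 15.03, 19.4 and 21.6 CPM in cKO untreated skin, below every WT library, with a log2 difference of -0.58 ± 0.19 (adjusted p = 0.241). Adk measured 50.3, 53.2 and 44.9 CPM, also below every WT library (-0.29 ± 0.16, adjusted p = 0.524). Adora2a, at 83.2, 120 and 143 CPM, overlapped WT (0.12 ± 0.22, adjusted p = 0.902), as did Entpd1 at 29.1, 35.4 and 23.8 CPM (0.12 ± 0.19, adjusted p = 0.865). P2rx4 was at 28.9, 26.8 and 31.7 CPM (0.17 ± 0.21, adjusted p = 0.817). P2rx7 had counts of 6, 30 and 0 in cKO untreated skin, too few to show a moderate difference at this depth.

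In MC903 skin, 0 of the 8 members passed, beside 0.258% of all genes called (0.0810% higher and 0.177% lower), and 3 had an unadjusted p under 0.05. DESeq2 and limma-voom each called 2 members there. Nt5e measured 120, 122 and 112 CPM in cKO, below all WT libraries (311 to 401 CPM), with a log2 difference of -1.57 ± 0.31 (adjusted p = 0.0519). P2ry14 measured 67.8, 37.6 and 52.0 CPM, above all WT libraries (18.9 to 23.0 CPM), with 1.34 ± 0.28 (adjusted p = 0.0636). Entpd1, at 36.6, 26.3 and 42.1 CPM against 24.9, 22.5 and 27.9 CPM, was the other (0.48 ± 0.19, adjusted p = 0.588), and its groups overlapped. Over the alternatives the adjusted p of Nt5e ran from 1.81e-05 to 0.27 and that of P2ry14 from 0.00114 to 0.364. In the fit with the replicate number as a block, 2 members were called.

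Averaged over treatments, Nt5e was 4.33-fold lower in cKO (log2 difference -2.11 ± 0.22, adjusted p = 8.92e-05) and P2ry14 3.13-fold higher (1.65 ± 0.20, adjusted p = 0.000229). These 2 members stand beside 1.75% of all genes called, 0.884% higher and 0.862% lower. Ada, at -0.41 ± 0.14 (adjusted p = 0.181), and Entpd1, at 0.30 ± 0.13 (adjusted p = 0.38), did not pass. Rora itself was lower by 0.50 ± 0.10 on the log2 scale (adjusted p = 0.0193), and that call was lost without WT untreated skin replicate 3, WT MC903 skin replicate 1, or cKO MC903 skin replicate 2 or 3, and without either marker-rich set of 3 libraries, where the adjusted p reached 0.182. Summed markers of other lymphocytes (CD8 and gamma-delta T cells, NK cells, innate lymphoid cells, with 8 of 12 listed genes in the table) ran in untreated skin from 15.7 to 21.6 CPM for WT against 30.7 to 42.4 for cKO, with Klrb1c, Ncr1 and Klra8 at 0 in both. Eomes, of the same list, was at 0 in cKO untreated skin and not in WT, against the direction of the sum. In MC903 skin the sums overlapped, at 15.3 to 23.0 CPM for WT against 22.7 to 33.3 for cKO. The sum of mast cell, basophil and granulocyte markers was lower in cKO untreated skin (19.5 to 30.1 CPM) than in WT (31.2 to 37.5 CPM). Its genes did not all go the same way. Between these groups, Cpa3, Cma1 and Tpsb2 were at 0 in cKO alone, and Tpsab1, Ms4a2, S100a8 and S100a9 in WT alone. Macrophage, dendritic and Langerhans cell markers overlapped in untreated skin and lay apart in MC903 skin, at 478 to 609 CPM for WT against 722 to 995 for cKO. Cd74 made up most of these sums, at 430 to 485 CPM for WT against 534 to 756 for cKO in MC903 skin. Sums of the keratinocyte, fibroblast and endothelium, and B cell lists overlapped between genotypes in both. Their part in the Nt5e, P2ry14 and Entpd1 differences was not tested.

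Nt5e lies on chromosome 9, as Rora does, and is the 1 member on that chromosome. Every cKO library carries floxed Rora and any DNA that came with it, so loss of Rora and linked DNA cannot be told apart for Nt5e. The annotation places 308 genes between them, of which 128 matched a row of the count table and 80 were tested. Of those 80, 10 (12.5%) were called in the averaged genotype comparison, 4 higher and 6 lower, beside 1.75% of all genes. In untreated skin 7 (8.75%) were called, beside 0.803% of all genes, and in MC903 skin 2 (2.5%), beside 0.258%. In untreated skin, Mns1, a gene of sperm and cilia, measured 15.6, 26.3 and 14.9 CPM for WT against 2.24, 4.66 and 4.06 for cKO (averaged log2 difference -2.43 ± 0.24, adjusted p = 4.69e-05). Leo1, of the PAF1 transcription complex, fell by 0.86 ± 0.09, Lrrc1 by 1.51 ± 0.19 and Lysmd2 by 0.86 ± 0.15, while Anxa2 rose by 0.79 ± 0.12 and Fam46a by 0.998 ± 0.16. The Lysmd2 call was lost with limma-voom (adjusted p = 0.0502). Among the 10 nearest tested genes on each side of Nt5e, edgeR called 0 of 20 in either skin alone (1 in untreated and 4 in MC903 skin had an unadjusted p under 0.05) and 1 in the average, Prss35, named here after its value was seen.

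**Figure D3:**
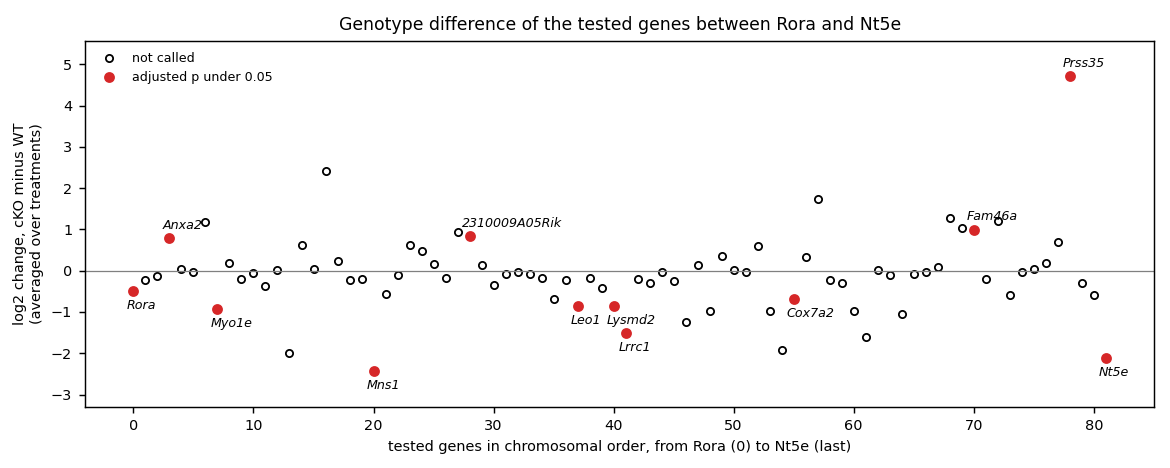
Log2 difference, cKO minus WT averaged over treatments, for Rora, Nt5e and the 80 tested genes between them in chromosomal order, with filled points for an adjusted p under 0.05. The 10 called genes between them are spread over the interval, 4 above and 6 below 0, and Nt5e is at -2.11.

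P2ry14 is on another chromosome, 3, and its gene lies inside the annotated span of Med12l together with Gpr171, P2ry13 and P2ry12. The library kit does not keep strand and the counting of reads is not given, so whether these overlapping genes share reads cannot be told. Med12l was at most 4.17 CPM in any library and was not called by genotype with edgeR. Gpr171, a G protein-coupled receptor gene, measured 66.2, 33.7 and 68.4 CPM for WT against 157, 100 and 96.6 for cKO in untreated skin. Those groups lay apart (log2 difference 1.07 ± 0.23, adjusted p = 0.0376), and the call was lost in 9 alternatives, each single library of cKO among those left out, with an adjusted p of up to 0.206. Averaged over treatments, Gpr171 was higher by 0.75 ± 0.16 (adjusted p = 0.0224, up to 0.191 over the alternatives). Between LN and WT untreated skin, where P2ry14 rose, Gpr171 was at 75.9, 81.3 and 72.4 CPM in LN. These lay above each WT untreated skin library, and edgeR did not call the difference.

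**Figure D4:**
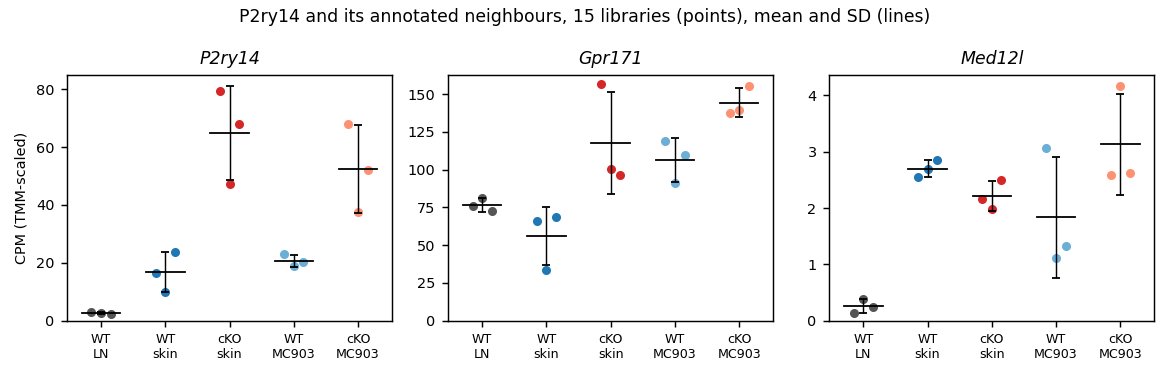
Levels of P2ry14, Gpr171 and Med12l in each library in CPM, each panel on its own scale from 0, with points for libraries, long lines at group means and error bars of 1 SD. In untreated skin P2ry14 and Gpr171 are both higher in cKO, and Med12l stays at or below 4.17 CPM.

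MC903 went with higher Adk in both genotypes. WT MC903 skin stood at 214, 158 and 247 CPM, against 59.4 to 62.0 CPM in WT untreated skin, a log2 difference of 1.77 ± 0.16 (adjusted p = 2.43e-05). In cKO it was at 231, 163 and 174 CPM, against 44.9 to 53.2 CPM (1.93 ± 0.16, adjusted p = 8.98e-06). All MC903 libraries stood above all LN libraries as well. Adk was the 1 member of 8 called in WT, beside 10.5% of all genes (5.03% higher and 5.44% lower), and 1 of 2 called in cKO, beside 11.3% (5.96% higher and 5.30% lower).

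Nt5e was the other in cKO, rising from 29.1 to 37.7 CPM in untreated to 112 to 122 CPM in MC903 skin (log2 difference 1.82 ± 0.31, adjusted p = 0.00269), 3.52-fold. In WT its groups overlapped through replicate 3 of untreated skin at 351 CPM (0.73 ± 0.30, adjusted p = 0.14), and without that library the difference was 1.31 (adjusted p = 0.00168). The cKO MC903 libraries lay within the range of WT untreated skin, 110 to 351 CPM. The sum of mast cell, basophil and granulocyte markers moved with MC903, from 31.2 to 37.5 CPM to 41.1 to 73.5 CPM in WT and from 19.5 to 30.1 to 51.5 to 84.5 CPM in cKO. Elane, of that list, was at 0 in both MC903 groups and in neither untreated skin group, and Mcpt8 the other way round. Summed B cell markers rose too, from 8.51 to 12.8 CPM to 15.5 to 16.9 CPM in WT and from 8.28 to 12.7 CPM to 14.2 to 25.5 CPM in cKO. Ms4a1 and Cr2, of the B cell list, were at 0 in cKO MC903 skin and not in cKO untreated skin, and the other way round in WT. Summed macrophage, dendritic and Langerhans cell markers, mostly Cd74, were lower with MC903 in WT (666 to 1270 CPM against 478 to 609 CPM). Clec9a, of that list, went the other way, at 0 in WT untreated skin and not in WT MC903 skin. Summed keratinocyte markers were lower with MC903 in cKO (383 to 568 CPM against 163 to 347 CPM). Dsg3 and Lor, of the keratinocyte list, were at 0 in cKO untreated skin and not in cKO MC903 skin, against the direction of the sum. The part of these marker groups in these differences was not tested.

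P2rx7 stayed low in MC903 skin, at 2.08 to 4.15 CPM for WT and at 2.81, 3.30 and 1.67 for cKO. All MC903 libraries stood above all untreated ones in each genotype, with log2 differences of 2.35 ± 0.73 in WT (adjusted p = 0.0559) and 2.35 ± 0.74 in cKO (adjusted p = 0.0566). Without cKO untreated skin replicate 2, the cKO difference was 4.34 (adjusted p = 0.00618). Ada measured 19.4, 20.2 and 15.7 CPM in WT MC903 skin, below each WT untreated library (-0.60 ± 0.19, adjusted p = 0.0591), and 16.0, 16.4 and 14.2 CPM in cKO MC903 skin. Adora2a differed by -0.52 ± 0.22 in WT (adjusted p = 0.155) and -0.45 ± 0.22 in cKO (adjusted p = 0.214). Without replicate 3 of WT untreated skin its WT difference passed (adjusted p = 0.0375). P2ry14 differed by 0.30 ± 0.28 in WT and -0.30 ± 0.27 in cKO, neither past the test.

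Whether MC903 acted differently by genotype was tested with the interaction term, and edgeR called 0 genes of all tested, 765 having an unadjusted p under 0.05. DESeq2 called 17 and limma-voom 0. Nt5e was the 1 member with an unadjusted p under 0.05, with an interaction of 1.08 ± 0.43 on the log2 scale (adjusted p = 0.866). P2ry14 had -0.60 ± 0.39 (adjusted p = 0.892). No difference between genotypes in the response of any member passed the test.

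Levels of different genes were set side by side per kilobase of the longest coding transcript in GENCODE vM21, as CPM per kb, mean ± SD of 3 libraries. In LN, Adk (67.9 ± 3.003) and Nt5e (54.5 ± 11.9) came first and their ranges overlapped. P2rx7 (16.5 ± 0.713) followed, then P2rx4, Ada, Adora2a (8.36 ± 0.463) and Entpd1 (6.30 ± 0.376), with P2ry14 last at 1.06 ± 0.119. In WT untreated skin, Nt5e (52.8 ± 31.3), Adora2a (40.9 ± 14.1) and Adk (33.3 ± 0.742) overlapped at the top, and P2rx7 was last at 0.115 ± 0.0822. In cKO untreated skin Adora2a led at 44.4 ± 11.6, Adk and P2ry14 (26.2 ± 6.60) overlapped next, and Nt5e was at 8.38 ± 1.07, in a range that overlapped those of Ada and Entpd1. In WT MC903 skin, Adk (113.5 ± 24.7) and Nt5e (87.8 ± 11.6) were again first. In cKO MC903 skin Adk (103.9 ± 20.1) stood alone above Adora2a (32.5 ± 3.56) and Nt5e (29.5 ± 1.40), which overlapped. Thus P2ry14 went from the lowest of the 8 genes in LN to among the highest 3 in cKO untreated skin.

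Further genes of purine signalling were counted from 7 lists, in which 84 genes other than the members were tested. Between WT untreated skin and LN, 21 were higher and 29 lower, 59.5% in all beside 57.6% of all genes, which is near the background. Over all genes 28.8% were higher and 28.8% lower. Of 21 tested ectoenzyme genes, members included, 3 were higher and 10 lower (61.9% called, median log2 difference -1.12, against 0.01 for all genes). Cd38, an enzyme that consumes NAD, fell from 34.7 to 71.2 CPM in LN to 3.49 to 10.4 CPM in skin (-2.90 ± 0.40, adjusted p = 1.57e-05). Art2b is a gene of the ADP-ribosyltransferase that can open the P2rx7 channel in T cells, and Art2a-ps is a related copy whose symbol marks a pseudogene. Both were at 0 in all WT untreated skin libraries. Against a floor of 3 counts over the group, Art2b was at least 287-fold and Art2a-ps at least 106-fold lower than in LN. Art2b measured 6.68, 31.9 and 2.20 CPM in LN, and without LN replicate 2 its bound was 89.3-fold. The Art2b call was lost with limma-voom (adjusted p = 0.135), and the near-identical copies may share reads.

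Both tested adenosine receptor genes were higher in skin. Adora2b, the lower-affinity receptor, was at 0.032 to 0.107 CPM in LN and 4.54 to 8.05 CPM in WT untreated skin (log2 difference 6.45 ± 0.48, adjusted p = 2.29e-08). Of 23 tested genes of cAMP synthesis, breakdown and response, 12 were higher and 3 lower in skin (65.2% called, beside 57.6% of all genes, median 1.06). Crem, a cAMP-responsive repressor gene, rose from 38.9 to 48.4 CPM to 3615 to 3854 CPM (6.38 ± 0.17, adjusted p = 4.67e-13), and the phosphodiesterase gene Pde4d by 4.29 ± 0.17. Of 25 transport and salvage genes, 3 were higher and 12 lower (60.0% called, beside the same 57.6%, median -0.67). Among them Pnp, which cleaves the inosine that Ada makes, rose by 1.72 ± 0.13 (adjusted p = 2.25e-08), as Ada did. Dpp4, of the same list, fell by 3.80 ± 0.33 (adjusted p = 1.08e-07). Of 5 P2Y receptor genes tested 2 rose, P2ry14 and P2ry2, the latter at no more than 1.88 CPM in WT untreated skin and with its call lost without LN replicate 2 (adjusted p = 0.0581). Of 4 P2X receptor genes, P2rx7 was the 1 that fell and 0 rose.

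**Figure D5:**
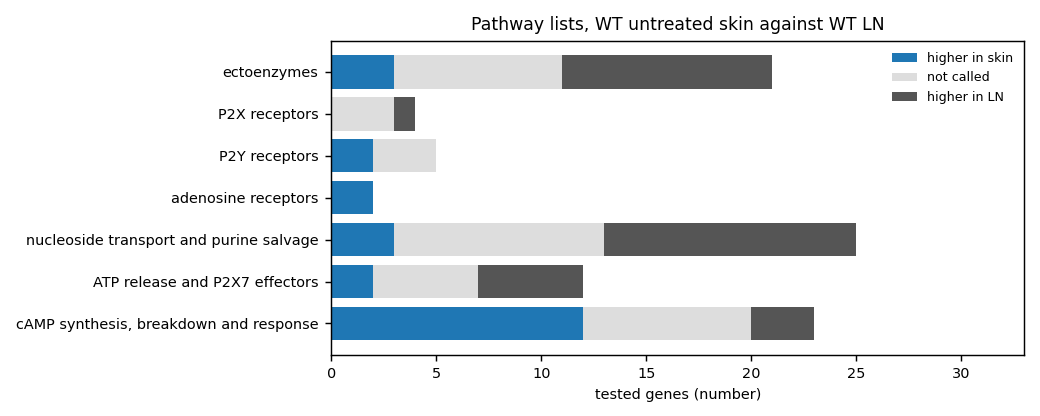
Number of tested genes of each purine-related list that were higher, lower or not called between WT untreated skin and LN, members included. Ectoenzymes (3 higher, 10 lower) and transport and salvage genes (3 higher, 12 lower) hold more genes called lower, and the cAMP list (12 higher, 3 lower) more called higher.

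By genotype in untreated skin, 2 of the 84 were higher and 0 lower (2.38%), beside 0.398% higher and 0.405% lower of all genes. Pde3b, a phosphodiesterase gene, measured 5.53, 6.59 and 2.80 CPM for WT against 30.6, 55.5 and 60.5 for cKO (log2 difference 3.29 ± 0.34, adjusted p = 0.000179), and its groups lay apart. Entpd4, an intracellular relative of Entpd1, measured 25.3, 21.6 and 20.8 CPM for WT against 43.2, 60.2 and 40.2 for cKO (1.09 ± 0.19, adjusted p = 0.0103). The Entpd4 call was lost in 4 alternatives, with an adjusted p of up to 0.0868, among them those without WT untreated skin replicate 3 or cKO untreated skin replicate 2. In MC903 skin 0 of the 84 were called by edgeR, with 7 at an unadjusted p under 0.05, and 1 by DESeq2. With MC903, 6 were higher and 3 lower in WT, and 6 were higher and 6 lower in cKO. These shares, 10.7% and 14.3%, stand near the 10.5% and 11.3% of all genes. Dpp4 rose in both (2.13 ± 0.31 and 2.54 ± 0.31), as Adk did, and Pde3b fell in cKO by 1.81 ± 0.31 (adjusted p = 0.00231).

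The genes whose levels were most like each member's were taken by Pearson's r of log2 CPM over the 12 skin libraries, among 7831 expressed genes (7832 for P2rx7), and are a description of libraries that share groups. Nt5e was most like Emb (r = 0.946), Cerk (0.927) and Itgb3 (0.917). P2ry14 was most like Gzmb (0.946), Myo3b (0.915) and Adarb1 (0.913). Gzmb, the granzyme B gene, measured 842 to 988 CPM for WT against 3062 to 5037 for cKO in untreated skin. Among the genes most like Adk were Gimap3 (0.972) and Zcchc18 (0.963), and Ada was most like Anp32a (0.955), Ccdc22 (0.940) and Plcxd2 (0.916). Adora2a was nearest to Ankrd9 (0.912), P2rx7 to Galk2 (0.912), P2rx4 to Slc2a4rg-ps (0.863) and Entpd1 to Rtp4 (0.853).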

How the data were processed

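RNA of sorted Tregs was made into libraries with SMART-Seq v4 and read as 75 bp single-end reads, per the labels' protocols. The submitters' processing notes name TopHat2 2.0.6, build mm9 and, without a version, DESeq2. Gene annotation and counting are not given in the sources used here. The authors deposited whole-number counts per gene and library. Per the file headers, their LN against skin table gives for each gene a log2 fold change and its error, a score (the change over that error), p-values and the mean signal after normalisation.

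Here, in R 4.3.3, edgeR 4.0.16 kept 13578 of 24015 genes (filterByExpr), scaled libraries by TMM (factors 0.903 to 1.26) and fitted 1 robust quasi-likelihood model to all 15 libraries. The biological coefficient of variation was 37.2%. Genes were called at an adjusted p under 0.05 (Benjamini-Hochberg). Standard errors are the log2 change over the square root of F. The script was tested on simulated data. Floors cover counting error only, since reads from PCR carried no molecular identifiers.

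Members and lists were chosen with earlier results of these data known. Named are the 8 members and Rora, up to 4 called genes per list and comparison by smallest adjusted p, genes next to or overlapping P2ry14, up to 6 called genes between Rora and Nt5e, and the 3 genes most like each member. Not all are printed. Gene order came from RefSeq GRCm38.p6, and the files' build is mm9, so no other coordinates are given. Alternatives were DESeq2 1.42.0, limma-voom (limma 3.58.1), relative log expression factors, 2 other filters, only the compared groups, the replicate number as a block and each library left out. The marker-rich sets, 3 libraries with most fibroblast and endothelium markers and 3 with most macrophage, dendritic and Langerhans cell markers, were left out in runs chosen after seeing the data. The latter set was LN replicate 3, cKO untreated skin replicate 1 and WT untreated skin replicate 3, ranked by a sum that is mostly Cd74. LN replicate 3 also had the most B cell markers, so its removal is not specific to macrophages. Of 30 same-numbered pairs of libraries, 4 had deviations that correlated over 0.1 (range -0.282 to 0.262), and each of the 4 joined replicate 3 libraries. A pair of unlike number, cKO untreated skin replicate 1 and cKO MC903 skin replicate 3, reached 0.243. With 3 libraries a group these correlations cannot exclude pairing, and the main fit treats the libraries as unpaired.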

Additional observations from a re-analysis of the deposited data

How the results depend on the processing

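All 16 called member results were called the same way in each of the alternatives that gave a value. Of the 48 not called, 10 passed in some alternative and 16 turned sign in some. The count of members called by genotype in MC903 skin, 0, was 2 with DESeq2, only the compared groups, the replicate block, limma-voom or without the macrophage-marker-rich libraries, and 1 with no filter. The count for MC903 in WT, 1, was 2 with DESeq2, the 50-count filter, the replicate block or limma-voom and 3 without the macrophage-marker-rich libraries, with 1 to 3 when single libraries were left out. The replicate block also gave 5 members against 4 for MC903 skin against LN and 3 against 2 for MC903 in cKO.

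Among the other pathway genes, DESeq2 called 4 by genotype in untreated skin, 1 in MC903 skin, 6 averaged and 1 for the interaction, against 2, 0, 3 and 0. In untreated skin 1 remained called with only the compared groups or without the macrophage-marker-rich libraries, and 1 to 3 when single libraries were left out. Without the latter libraries 1 was called in MC903 skin. Without the fibroblast-marker-rich libraries 1 was called averaged. For MC903 in WT, 9 became 3 with only the compared groups, 5 with limma-voom, 4 without the fibroblast-marker-rich libraries and 4 to 8 when single libraries were left out, and in cKO 12 became 5 to 8. Of the 20 genes nearest Nt5e, 2 were called with DESeq2, 0 with the 50-count filter, limma-voom or without the macrophage-marker-rich libraries, and 0 to 2 with single libraries left out.

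The called P2rx7 difference in skin against LN, -7.12, was -7.715 with limma-voom. Sign turns were limited to uncalled members. Nt5e in skin against LN was 0.00050 with DESeq2, 0.00018 with relative log expression factors and 0.17 with limma-voom, and -0.63 to 0.26 with single libraries left out. In the same comparison Entpd1 was -0.017 without the macrophage-marker-rich libraries and -0.052 to 0.084, and P2rx4 -0.35 to 0.070, with single libraries left out. By genotype in untreated skin the single-library ranges were -0.031 to 0.25 for Entpd1, -2.20 to 0.43 for P2rx7, -0.029 to 0.39 for P2rx4 and -0.10 to 0.40 for Adora2a. In MC903 skin they were -0.41 to 0.10 for P2rx7, -0.088 to 0.22 for P2rx4 and -0.30 to 0.022 for Adk, and averaged -1.20 to 0.11 for P2rx7. Without the fibroblast-marker-rich libraries P2rx7 was 0.11 in untreated skin and 0.040 averaged, and Adk was 0.079 in MC903 skin. P2rx4 with MC903 in WT was 0.070 with limma-voom and -0.26 to 0.16 with single libraries left out. For the interaction, P2rx7 was 0.0056 with no filter, 0.0045 with the 50-count filter, 0.92 with limma-voom, 0.087 without the macrophage-marker-rich libraries and -0.63 to 2.00 with single libraries left out. P2rx4 was 0.11 without the fibroblast-marker-rich libraries and -0.31 to 0.11, Adora2a -0.20 with limma-voom and -0.21 to 0.29, and Adk -0.0076 to 0.31. The cause of these changes was not tested.

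Pairing by replicate number was neither shown nor excluded, and 4 libraries correlated best with a same-numbered one. With 3 libraries a group, small differences of any member cannot be shown. P2rx7 in skin rests on 0 to 111 counts a library, which limits its skin comparisons.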

Other observations

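Genes that release ATP or act after the P2rx7 channel are described here as a further group. Of 12 tested, 2 were higher and 5 lower in WT untreated skin than in LN, 58.3% beside the 57.6% of all genes called, so the count is near the background. Pycard, the inflammasome adaptor gene, fell by 2.32 ± 0.21 on the log2 scale, and Slc17a9, which loads ATP into vesicles, by 1.57 ± 0.21. Gsdmd, of the pore-forming gasdermins, fell by 0.84 ± 0.15, and Lrrc8a, of the volume-regulated channels, rose by 0.90 ± 0.13. With MC903 Pycard rose in WT (0.86 ± 0.20, adjusted p = 0.0132) and in cKO (1.41 ± 0.20, adjusted p = 0.000675) by edgeR's quasi-likelihood test.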
